A study of Homo sapiens with 24 samples.

Results

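The genes described here are 10 components of the machinery that carries a cell from G1 into S phase: the D cyclins CCND1, CCND2 and CCND3, the E cyclins CCNE1 and CCNE2, the kinases CDK4, CDK6 and CDK2, and the kinase inhibitors CDKN1B and CDKN2C. They were taken by symbol, mapped from the Ensembl identifiers of the count tables, and all 10 were found among the 60675 genes counted in each of 24 RNA-seq libraries. The libraries came from ACHN, a human renal cancer cell line that the labels class as ccRCC, and from HK2, a human kidney proximal tubule line immortalised with papillomavirus E6 and E7 genes. Each line was sequenced in 4 groups of 3 libraries: cells with a control hairpin (shNC), cells with a hairpin against the histone demethylase KDM5C (shKDM5C), cells with a hairpin against the transcription factor YY1 (shYY1), and cells depleted of both (double knockdown). All groups carried lentiviral hairpins and were grown under puromycin selection. Double-knockdown cells were YY1-depleted cells that received a second, GFP-labelled hairpin vector against KDM5C. The study describes a second infection and a selection for fluorescence for these cells only, so they may also differ from the other groups in both. It also lists a GFP-labelled control hairpin vector, and whether other sequenced groups carried a GFP vector is not given. The study listed more than 1 hairpin per gene, and which one was sequenced is not given in the sources used here. The question was how G1 control genes stand in cells that have lost KDM5C, YY1 or both.

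In G1, growth signals raise D cyclins, which bind CDK4 or CDK6, and the active kinases phosphorylate the retinoblastoma protein. E cyclins with CDK2 then complete that phosphorylation, E2F factors are released, and genes for DNA replication are switched on. CDKN1B (p27) holds cyclin E and CDK2 in check and also associates with cyclin D complexes, while CDKN2C (p18) blocks CDK4 and CDK6 directly. The papillomavirus E7 protein, with which HK2 cells of all groups were immortalised, is known to bind the retinoblastoma protein and loosen its hold on E2F.

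Because YY1 was depleted, promoters of some members were searched for letters that it recognises. RefSeq promoters (GRCh38.p14, 250 bases before to 50 after a start) of 6 of the 10 members were used, 11 starts in all. Those of CCND1, CCND2, CCNE2 and CDK2 were not searched, so the counts of matches below do not cover these members. The letters AANATGGC, a core recognised by YY1, were searched on both strands and occurred in 1 of these 11 windows, at CDKN1B, and in 6.58% of all 35116 promoters. An E2F motif, TTTNGCGC, occurred in 0 of the 11 and in 1.79% of all promoters. The sequences below are the CDKN1B window with its match in capitals and, as a member that moved the other way in ACHN shYY1 cells, a CDK6 window without one. The CDKN1B window lies at chr12:12717118-12717417 on the plus strand, with the match read on the opposite strand, and the CDK6 window at chr7:92836524-92836823 on the minus strand. A match of letters is a description and not a bound site.
CDKN1B: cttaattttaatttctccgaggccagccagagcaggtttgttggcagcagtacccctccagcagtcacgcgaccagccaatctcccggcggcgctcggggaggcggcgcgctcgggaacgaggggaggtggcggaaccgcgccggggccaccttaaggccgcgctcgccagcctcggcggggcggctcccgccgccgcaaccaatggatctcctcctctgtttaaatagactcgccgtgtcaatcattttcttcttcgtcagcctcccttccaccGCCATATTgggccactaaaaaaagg
CDK6: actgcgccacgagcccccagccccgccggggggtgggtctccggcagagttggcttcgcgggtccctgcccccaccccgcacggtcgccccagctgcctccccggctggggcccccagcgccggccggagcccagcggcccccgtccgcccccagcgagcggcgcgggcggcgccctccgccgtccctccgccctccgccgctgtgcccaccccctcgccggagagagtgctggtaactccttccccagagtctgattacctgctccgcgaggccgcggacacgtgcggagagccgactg

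Between 15926561 and 24272298 read pairs per library were counted on genes. Levels are given as CPM, read pairs relative to library size with TMM factors over all 24 libraries, and as TPM, which also divides by exon length, where genes are compared with each other. Both targets were lower under their hairpins, with log2 fold changes against shNC of −0.73 and −0.80 for KDM5C and −0.88 and −0.51 for YY1 in ACHN single and double knockdowns, and of −1.74 and −1.49 (KDM5C) and −1.70 and −1.49 (YY1) in HK2. Without HK2 shKDM5C replicate 1, described below, the value of −1.74 was −1.51. Kidney epithelial markers (6 of 6, among them PAX8 and KRT8) had a mean of at least 1 CPM in both lines, and leukocyte markers summed to at most 0.411 CPM and endothelial markers to at most 1.78 CPM in any library. The summed epithelial level in ACHN was 3035 to 3094 CPM in shNC, 3617 to 3788 in shKDM5C, 3617 to 3681 in shYY1 and 2147 to 2350.2 in double-knockdown cells, and in HK2 2830.4 to 2928, 2318 to 2969, 2031 to 2156 and 1528 to 1636 CPM in the same order. Of 5 fibroblast markers 2 (COL1A1 and PDGFRB) reached 1 CPM in ACHN and 3 in HK2. Their summed level was 586 to 636 CPM in ACHN shNC against 74.6 to 79.1 in shKDM5C, 190 to 197 in shYY1 and 135 to 152 in double-knockdown cells, and in HK2 41.8 to 43.5 in shNC, 28.2 to 38.3 in shKDM5C, 54.7 to 62.6 in shYY1 and 93.0 to 103 CPM in double-knockdown cells. COL1A2 was at or under 0.0407 CPM and LUM at 0 in every ACHN library, while LUM had 8.85 to 65.3 CPM in HK2. The part of these markers in the results was not tested. One HK2 shKDM5C library, replicate 1, stood apart: the log2 differences between it and the other libraries of its group had SDs of 0.747 and 0.735 over genes, against 0.132 to 0.216 for all other pairs of libraries within a group. Fold changes of members in HK2 shKDM5C cells against shNC are given with and without it. In bulk RNA, fewer cells in a given phase and less RNA per cell cannot be told apart.

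Each knockdown was compared with shNC of its line in edgeR, by a quasi-likelihood F test. Calls were made below 0.05 after Benjamini-Hochberg adjustment of the p-values over all genes tested. The comparisons within a line share the same 3 shNC libraries. The labels do not say that replicates were separate cultures, so p-values measure the spread between these libraries, which may be technical. A permutation of 3 against 3 libraries cannot give an exact p under 0.1, so the tests rest on the spread shared across genes. In ACHN shKDM5C cells 4 members were lower and 3 higher of 9 tested, where 27.7% and 28.9% of all genes tested were called lower and higher. In ACHN shYY1 cells 4 members were lower and 3 higher of 10, against 24.5% and 24.2% of all genes. ACHN double-knockdown cells had 4 members lower and 3 higher, against 32.0% and 30.7%. With about 3 to 4 of 10 members on each side, these counts are near the background of the line.

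In HK2 the same test called 1 member lower and 0 higher in shKDM5C cells, where 0.656% and 0.668% of all genes were called. At an unadjusted p under 0.05 there were 3 lower (CCND1, CCND2, CCNE1) and 1 higher (CDK6), against 7.05% and 8.28% of genes, and DESeq2 called 2 lower and 0 higher, against 2.35% and 2.64%. Without replicate 1 of shKDM5C, 3 members were lower and 5 higher, against 10.9% and 11.5% of genes. In HK2 shYY1 cells 3 were lower and 2 higher (14.7% and 14.3% of genes), and in HK2 double-knockdown cells 4 were lower and 4 higher (24.3% and 25.5%). When all 12 HK2 libraries, including the one that stood apart, shared 1 fit, 0 members were called lower and 1 higher (CCND1) in shYY1 cells, against 3.26% and 2.16% of genes. In double-knockdown cells that fit called 3 lower and 0 higher, against 11.2% and 11.7%.

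Size set CCND2 apart from the other members. When calls also had to lie 1.5 or more log2 units from 0, 1 member was called in ACHN shYY1 cells (3.13% of all genes) and 1 in ACHN double-knockdown cells (8.42%), in both cases CCND2. In the other comparisons with shNC no member passed this threshold, where 3.34% of genes did in ACHN shKDM5C, 0.501% in HK2 shKDM5C, 1.29% in HK2 shYY1 and 4.30% in HK2 double-knockdown cells.

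**Figure D1:**
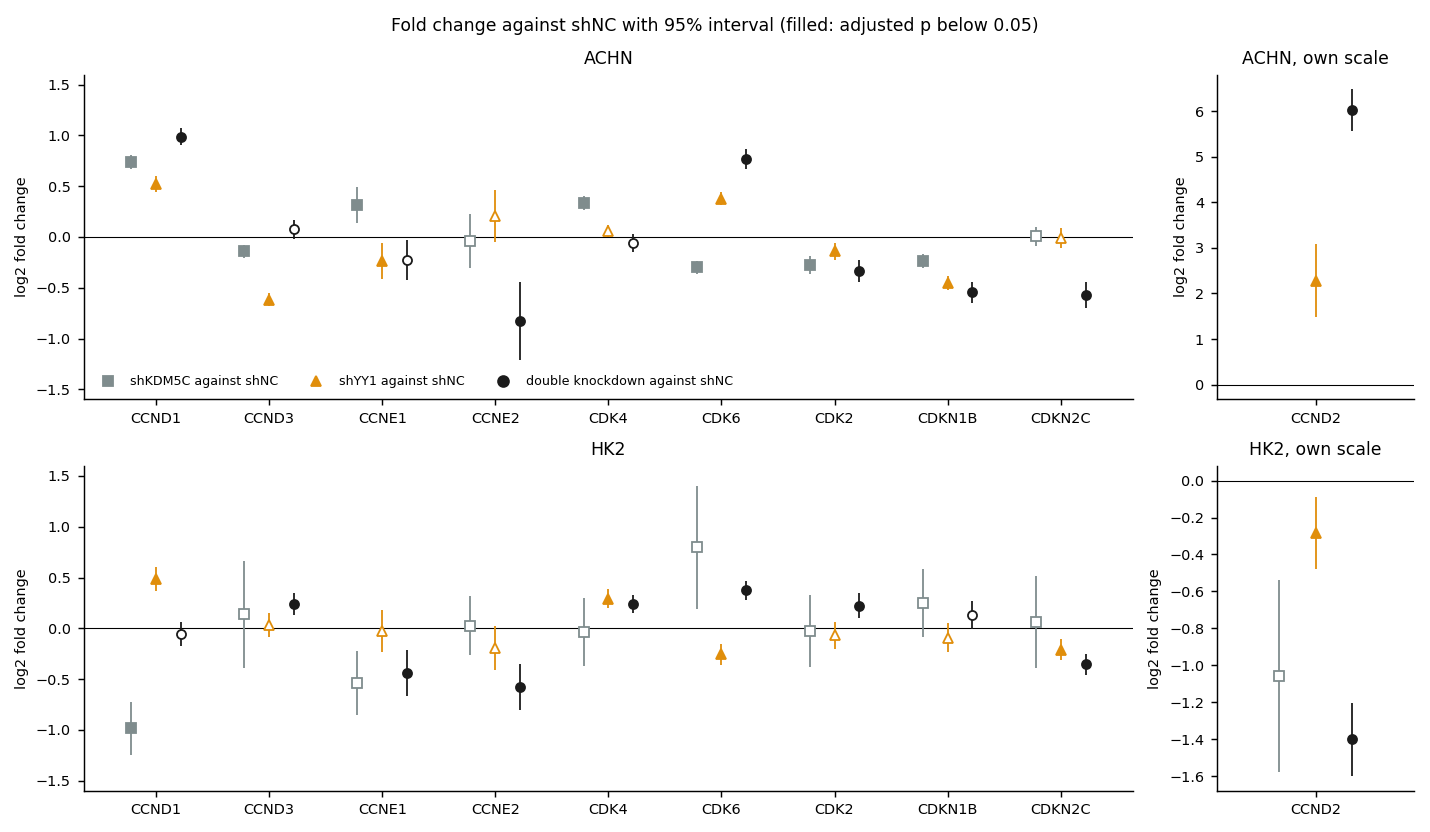
Log2 fold change of each member against shNC of its line, with 95% intervals, for shKDM5C (squares), shYY1 (triangles) and double-knockdown cells (circles); filled symbols have an adjusted p under 0.05 and CCND2 has its own axes. CCND1 and CDK6 rose in ACHN double-knockdown cells while CDKN1B and CDKN2C fell, and CCND2 stands at 6.02 there against −1.40 in HK2.

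CCND1 encodes cyclin D1, the D cyclin most often raised in epithelial cancers. Its gene (ENSG00000110092) lies on chromosome 11 of GRCh38 from 69641087 to 69654474. In ACHN cells the 3 shNC libraries had 148, 155 and 148 CPM, the shKDM5C libraries 265, 256 and 242, the shYY1 libraries 234, 222 and 199, and the double-knockdown libraries 298, 298 and 295. No groups overlapped, and each knockdown stood above shNC with the double knockdown highest. The log2 fold changes against shNC were 0.74 ± 0.04 (SE, adjusted p = 2.89e-15) in shKDM5C, 0.52 ± 0.04 (adjusted p = 6.26e-13) in shYY1 and 0.99 ± 0.04 (adjusted p = 5.34e-13) in double-knockdown cells.

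In HK2 cells CCND1 went the other way with KDM5C loss. The shNC libraries had 86.1, 101 and 87.9 CPM, shKDM5C 47.5, 43.1 and 44.7, shYY1 125, 130 and 131, and double-knockdown cells 89.1, 84.8 and 90.5. Thus shKDM5C was the lowest group and shYY1 the highest, with no overlap with shNC, and double-knockdown cells overlapped with shNC. The fold change was −0.98 ± 0.13 (SE, adjusted p = 0.021) in shKDM5C cells, 0.49 ± 0.06 (adjusted p = 2.38e-06) in shYY1 cells, and −0.06 ± 0.06 (adjusted p = 0.455) in the double knockdown. Replicate 1 of shKDM5C was close to the rest of its group for CCND1, and without it the shKDM5C value was −1.07 (adjusted p = 4.43e-11). Leaving out any 1 of the other 5 libraries kept the value between −1.03 and −0.91 but ended the call (adjusted p = 0.0978 to 0.168). LTO1 on the opposite strand shares 497 exon bases with CCND1 and had 6466 read pairs over the 24 libraries against 71421 for CCND1.

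CCND2 encodes cyclin D2 (ENSG00000118971, chromosome 12 from 4273772 to 4305350). It was nearly silent in ACHN control cells, with 2, 12 and 4 read pairs in the shNC libraries, or 0.105, 0.647 and 0.217 CPM. The shKDM5C libraries had 1, 7 and 5 read pairs, too few to pass edgeR's filter, so this comparison was not tested. The shYY1 libraries had 32, 30 and 27 read pairs (1.71, 1.62 and 1.51 CPM), and the double-knockdown libraries 396, 365 and 559 (20.4, 20.2 and 22.8 CPM). The shYY1 group thus stood above shNC and the double knockdown above shYY1, each without overlap. Log2 fold changes against shNC were 2.28 ± 0.40 (SE, adjusted p = 1.46e-05) in shYY1 and 6.02 ± 0.23 (adjusted p = 9.20e-14) in double-knockdown cells, a 65.0-fold ratio on very few control reads. Without shNC replicate 2, which held most of the control reads, they were 3.26 and 6.998.

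HK2 control cells, in contrast, expressed CCND2 at 30.0, 37.2 and 34.0 CPM. Levels were 29.4, 23.5 and 30.6 CPM in shYY1 and 12.1, 13.4 and 12.9 CPM in double-knockdown cells. In shKDM5C cells replicate 1 had 21.5 CPM and replicates 2 and 3 had 12.2 and 13.4. The double knockdown and shKDM5C were below every shNC library and overlapped each other. The fold change was −1.40 ± 0.10 (SE, adjusted p = 5.56e-13) in the double knockdown and −1.06 ± 0.27 (adjusted p = 0.142) in shKDM5C, where it was −1.41 (adjusted p = 7.03e-10) without replicate 1 and −1.05 (adjusted p = 0.00992) by DESeq2. It was −0.28 ± 0.10 (adjusted p = 0.0363) in shYY1, which did not pass without shNC replicate 2 (−0.21), shNC replicate 3 (−0.28) or shYY1 replicate 2 (−0.18). The shYY1 value also did not pass with all 12 HK2 libraries in 1 fit (adjusted p = 0.526). CCND2 therefore ended at 20.2 to 22.8 CPM in ACHN double-knockdown libraries and at 12.1 to 13.4 in those of HK2, from control levels that were far apart in the opposite order.

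CCND3, which encodes cyclin D3 (ENSG00000112576, chromosome 6 from 41934933 to 42050357), moved most in ACHN shYY1 cells. ACHN levels were 217, 217 and 227 CPM in shNC, 205, 202 and 198 in shKDM5C, 149, 145 and 142 in shYY1 and 239, 213 and 240 in the double knockdown. Only the double knockdown overlapped shNC. The fold change was −0.62 ± 0.03 (SE, adjusted p = 2.56e-17) in shYY1, −0.14 ± 0.03 (adjusted p = 0.000602) in shKDM5C and 0.07 ± 0.05 (adjusted p = 0.203) in the double knockdown, which reached 0.14 (adjusted p = 0.00648) without double-knockdown replicate 2. In HK2 cells the shNC libraries had 98.4, 95.004 and 97.8 CPM and the double-knockdown libraries 126, 111 and 108, a fold change of 0.24 ± 0.06 (adjusted p = 0.000616). HK2 shYY1 cells had 93.0 to 108 CPM (0.03 ± 0.06, adjusted p = 0.732). In HK2 shKDM5C cells replicate 1 had 56.9 CPM and the others 127 and 134, with a value of 0.14 ± 0.27 (adjusted p = 0.796) and of 0.42 (adjusted p = 1.24e-06) without replicate 1.

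Added up per length, the D cyclins of ACHN cells shifted toward CCND1. Their summed level was 228 to 233 TPM in shNC, 276 to 291 in shKDM5C, 211 to 243 in shYY1 and 366 to 378 in double-knockdown libraries. CCND1 made up 44.0 to 46.1% of it in shNC and 57.8 to 65.1% in the 3 knockdown groups, while the share of CCND3 went from 53.8 to 56.0% in shNC to 34.5 to 40.5%. CCND2 reached 2.69 to 3.01% in double-knockdown cells, so its large fold change was a small part of the D cyclin RNA. In HK2 cells the sum was 142 to 154 TPM in shNC, 164 to 175 in shYY1 and 141 to 153 in the double knockdown, with CCND2 at 10.8 to 12.3% in shNC and 4.03 to 4.85% in the double knockdown. In HK2 shKDM5C libraries it was 70.8 TPM in replicate 1 and 117 and 124 in the others, all below shNC. These sums were not tested.

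**Figure D2:**
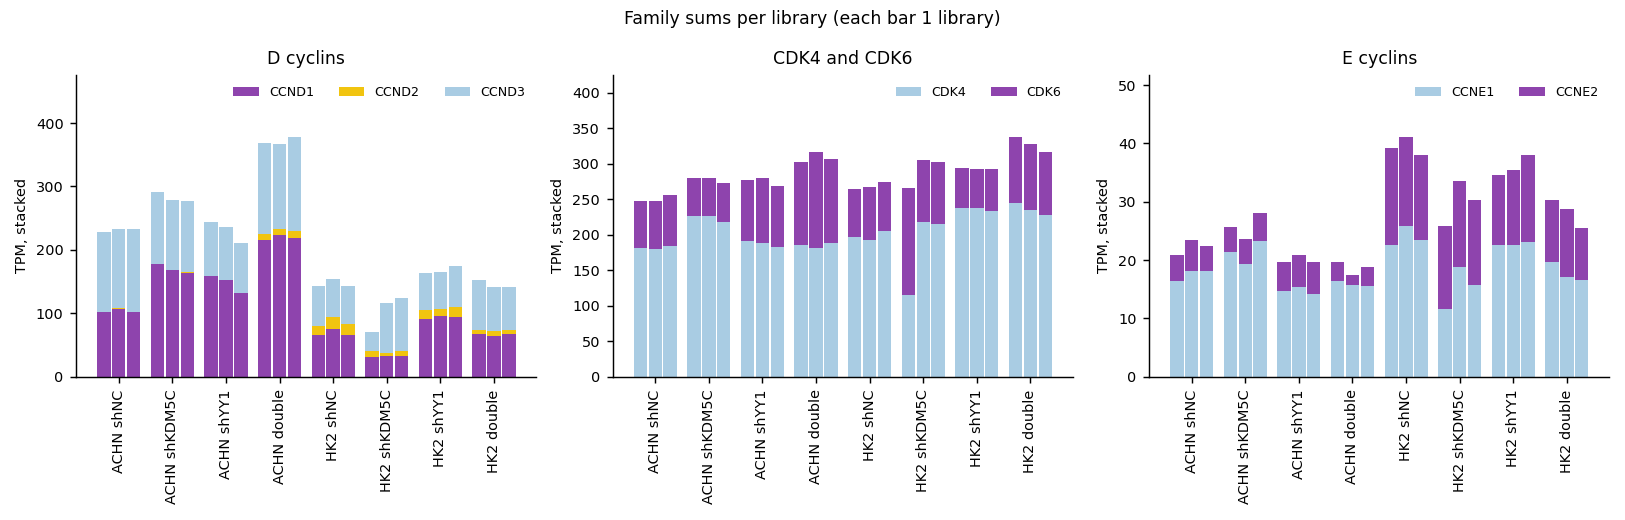
Stacked TPM of the D cyclins, of CDK4 with CDK6 and of the E cyclins, each bar 1 library. The D cyclin sum is highest in the 3 ACHN double-knockdown libraries (366 to 378 TPM), CDK6 takes 38.6 to 42.9% of the CDK4 and CDK6 sum there, and HK2 shKDM5C replicate 1 is the first bar of its group.

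CDK6, a catalytic partner of the D cyclins (ENSG00000105810, chromosome 7 from 92604921 to 92836594), changed in opposite directions in the single knockdowns of ACHN. Levels were 243, 247 and 262 CPM in shNC, 205, 209 and 204 in shKDM5C, 321, 341 and 330 in shYY1 and 410, 461 and 407 in double-knockdown cells, and no groups overlapped. The log2 fold changes were −0.30 ± 0.03 (SE, adjusted p = 3.38e-08), 0.38 ± 0.03 (adjusted p = 5.90e-12) and 0.77 ± 0.05 (adjusted p = 2.80e-10), in that order. In HK2 cells the shNC libraries had 226, 253 and 232 CPM, shYY1 197, 191 and 210, and double-knockdown cells 312, 307 and 303. There shYY1 was below and the double knockdown above shNC, with values of −0.25 ± 0.05 (adjusted p = 0.00088) and 0.37 ± 0.05 (adjusted p = 4.02e-08). HK2 shKDM5C replicate 1 had 593 CPM, the highest level of any library, and replicates 2 and 3 had 295 and 300. The value was 0.80 ± 0.31 (adjusted p = 0.290) with replicate 1 and 0.32 (adjusted p = 1.19e-05) without it.

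CDK4, the other partner of the D cyclins (ENSG00000135446, chromosome 12 from 57747727 to 57756013), varied little. In ACHN cells it had 172, 169 and 175 CPM in shNC and 222, 225 and 210 in shKDM5C, where it rose by 0.33 ± 0.03 (SE, adjusted p = 4.92e-09). The shYY1 libraries had 180 to 185 CPM and the double-knockdown libraries 159 to 168, with values of 0.06 ± 0.03 (adjusted p = 0.133) and −0.06 ± 0.04 (adjusted p = 0.264). In HK2 cells the shNC libraries had 167 to 181 CPM, and both the shYY1 group at 211 to 214 and the double knockdown at 200.3 to 212 lay above them. The fold changes were 0.29 ± 0.05 (adjusted p = 7.69e-05) and 0.24 ± 0.05 (adjusted p = 5.59e-05). Neither passed with all 12 HK2 libraries in 1 fit (adjusted p = 0.26 and 0.235). HK2 shKDM5C cells had 116 CPM in replicate 1 and 193 and 188 in the others, and the value turned from −0.04 (adjusted p = 0.917) to 0.13 (adjusted p = 0.0479) without replicate 1. The TSPAN31 gene on the opposite strand shares 1369 exon bases with CDK4, and since strand was not used in counting, reads there cannot be assigned to one of the genes.

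Per length, CDK4 was above CDK6 in every library but one, and the balance moved. TPM divides by all 3168 exon bases of CDK4, 1369 of them shared with TSPAN31, so its level per length can be off. What part this had in the shares was not tested. CDK6 was 26.8 to 27.9% of the CDK4 and CDK6 sum in ACHN shNC, 19.3 to 20.05% in shKDM5C, 30.9 to 32.9% in shYY1 and 38.6 to 42.9% in double-knockdown libraries. In HK2 it was 24.9 to 28.1% in shNC, 18.9 to 20.4% in shYY1 and 27.6 to 28.2% in the double knockdown. In HK2 shKDM5C it was 28.3 and 29.2% in replicates 2 and 3, and 56.9% in replicate 1, the one library with more CDK6 than CDK4. The double knockdown thus had a higher CDK6 share than every shNC library in ACHN and overlapped with shNC in HK2.

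**Figure D3:**
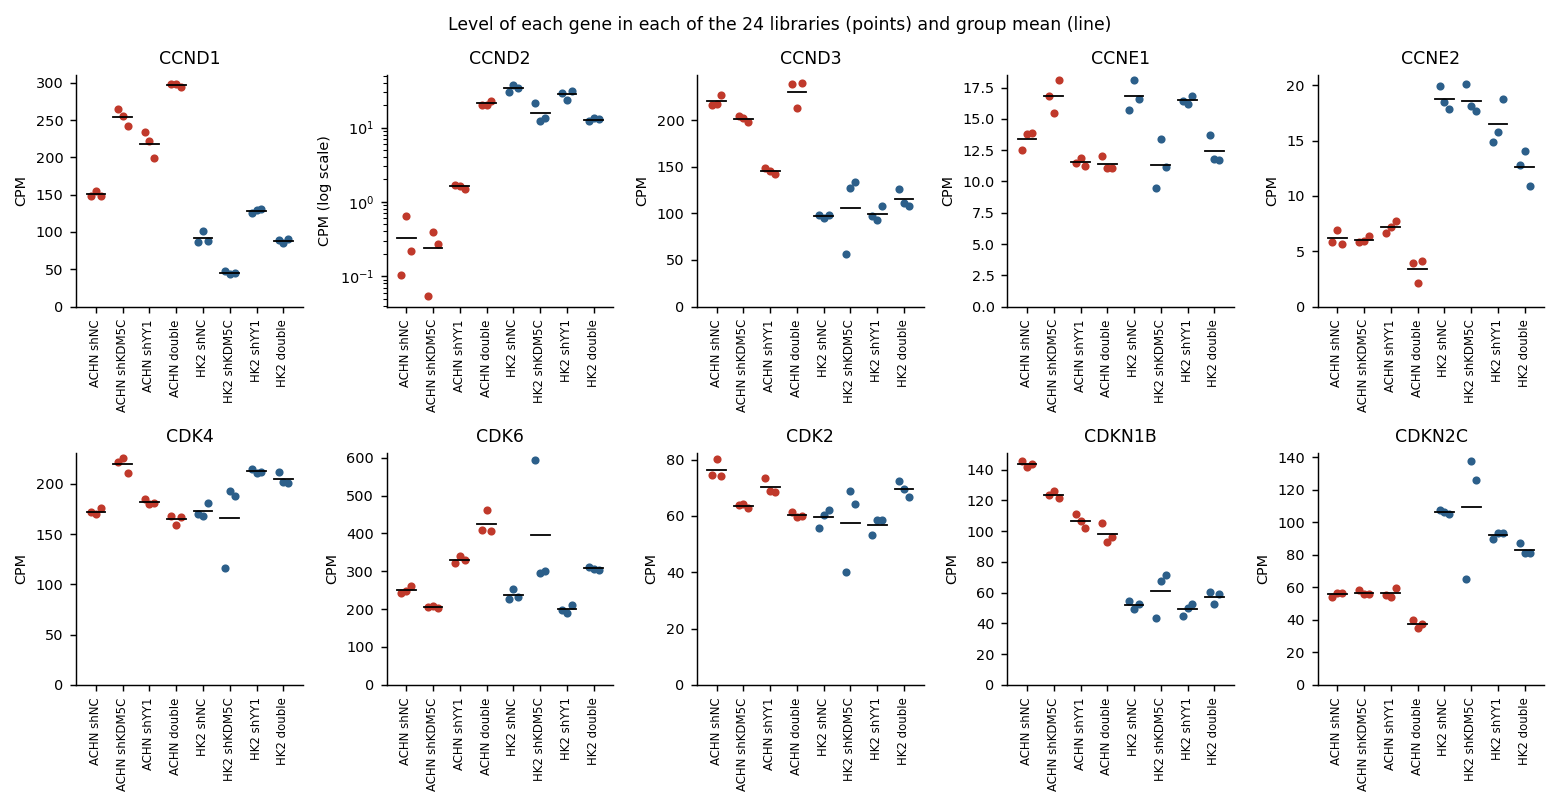
CPM of each member in each library (points; ACHN red, HK2 blue) with the group mean (line); the CCND2 axis is logarithmic and the others start at 0. CCND1 in ACHN runs from 148 CPM in shNC to 298 in double-knockdown cells without overlap between groups, and the wide spread in HK2 shKDM5C comes from replicate 1, as for CDK6 at 593 CPM.

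The E cyclins activate CDK2 late in G1. CCNE1 (ENSG00000105173, chromosome 19 from 29811898 to 29824308) had 12.53, 13.8 and 13.9 CPM in ACHN shNC and 16.8, 15.5 and 18.1 in shKDM5C, a rise of 0.32 ± 0.09 (SE, adjusted p = 0.00407) without overlap. It had 11.3 to 11.9 CPM in shYY1 and 11.04 to 12.04 in the double knockdown, both below every shNC library. The value in shYY1 was −0.24 ± 0.09 (adjusted p = 0.0342), and it did not pass by DESeq2 (adjusted p = 0.111), with no filter (0.0795), with all ACHN groups in 1 fit (0.0709) or without shNC replicate 2 or 3 or shYY1 replicate 1 or 3 (0.0771 to 0.103). In the double knockdown it was −0.23 ± 0.10 (adjusted p = 0.057), and it passed without shNC replicate 1 or double-knockdown replicate 1 (0.0474 and 0.0485) and with all ACHN groups in 1 fit (0.0373). In HK2 cells CCNE1 fell from 15.7, 18.1 and 16.6 CPM in shNC to 13.7, 11.8 and 11.7 in the double knockdown, with a value of −0.44 ± 0.12 (adjusted p = 0.00224). HK2 shYY1 cells overlapped with shNC (−0.03 ± 0.11, adjusted p = 0.873), and shKDM5C cells had 9.46, 13.4 and 11.1 CPM (−0.54 ± 0.16, adjusted p = 0.203, and −0.46, adjusted p = 0.00936, without replicate 1).

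CCNE2, the second E cyclin (ENSG00000175305, chromosome 8 from 94879770 to 94896678), was lower in double-knockdown cells of both lines. In ACHN it had 5.87, 6.90 and 5.68 CPM in shNC and 3.96, 2.16 and 4.07 in the double knockdown, and in HK2 19.96, 18.5 and 17.9 against 12.8, 14.0 and 10.9 CPM. The groups did not overlap in either line, and the values were −0.83 ± 0.20 (SE, adjusted p = 0.00122) and −0.58 ± 0.12 (adjusted p = 0.000106). The ACHN double-knockdown libraries held 77, 39 and 100 read pairs. On leaving out single libraries the ACHN value ran from −0.98 to −0.59 and still passed (adjusted p up to 0.0102). The single knockdowns did not pass the test in either line, with values from −0.19 (HK2 shYY1, adjusted p = 0.218) to 0.21 (ACHN shYY1, adjusted p = 0.196). HK2 shKDM5C cells were at 0.03 (adjusted p = 0.934), and at −0.08 (adjusted p = 0.684) without replicate 1. CCNE2 shares 1629 exon bases with INTS8 on the opposite strand, a gene with 29811 read pairs over the 24 libraries against 4808 for CCNE2. As for CDK4, reads there cannot be assigned to one of the genes. The E cyclin sum per length was 20.9 to 23.5 TPM in ACHN shNC and 17.5 to 19.6 in the double knockdown, and 38.0 to 41.1 against 25.5 to 30.4 TPM in HK2. It divides by all 4397 exon bases of CCNE2, the shared ones included, so the CCNE2 part can be off.

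CDK2 (ENSG00000123374, chromosome 12 from 55966769 to 55972784) had the smallest spread of the members. Its group means ranged over at most 0.34 on the log2 scale within a line, against up to 4.89 for CCND2. ACHN levels were 74.7, 80.4 and 74.1 CPM in shNC, 62.7 to 64.2 in shKDM5C, 68.4 to 73.3 in shYY1 and 59.7 to 61.4 in the double knockdown, each below shNC without overlap. The fold changes were −0.28 ± 0.05 (SE, adjusted p = 1.01e-05), −0.14 ± 0.04 (adjusted p = 0.00818) and −0.33 ± 0.05 (adjusted p = 2.54e-05). The shYY1 value did not pass without shNC replicate 2 (−0.10, adjusted p = 0.0965), which with the loss of CCNE1 left 2 members called lower in that comparison. HK2 cells had 55.8, 60.4 and 62.2 CPM in shNC and 72.4, 69.7 and 66.6 in the double knockdown, a rise of 0.22 ± 0.06 (adjusted p = 0.00342). This rise did not pass with all 12 HK2 libraries in 1 fit (adjusted p = 0.32). HK2 shYY1 overlapped with shNC (−0.07 ± 0.07, adjusted p = 0.480), and shKDM5C had 40.04 CPM in replicate 1 and 68.7 and 64.2 in the others (−0.02 ± 0.18, adjusted p = 0.955, and 0.15, adjusted p = 0.120, without replicate 1).

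CDKN1B encodes p27, an inhibitor of cyclin and kinase complexes (ENSG00000111276, chromosome 12 from 12715058 to 12722371). Of the 6 members whose promoter windows were searched, it is the one whose window holds the YY1 letters shown above. The 3 windows of CCND3, which fell further in ACHN shYY1 cells, do not hold them. In ACHN cells it had 146, 142 and 144 CPM in shNC, 123, 126 and 122 in shKDM5C, 111, 107 and 102 in shYY1 and 105, 93.0 and 96.2 in the double knockdown. All knockdown groups were below shNC, and shYY1 and the double knockdown overlapped. The fold changes were −0.23 ± 0.04 (SE, adjusted p = 3.48e-06), −0.45 ± 0.04 (adjusted p = 1.31e-12) and −0.55 ± 0.05 (adjusted p = 2.53e-08). In HK2 cells it had 49.1 to 54.6 CPM in shNC, 44.5 to 52.6 in shYY1 and 52.4 to 60.2 in the double knockdown, groups that overlapped, and neither passed the test (−0.09, adjusted p = 0.392, and 0.13, adjusted p = 0.112). Without double-knockdown replicate 2 the latter was 0.19 (adjusted p = 0.0341). HK2 shKDM5C cells had 43.8 CPM in replicate 1 and 67.3 and 71.7 in the others, with a value of 0.25 ± 0.17 (adjusted p = 0.487) and of 0.40 (adjusted p = 7.07e-05) without replicate 1.

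CDKN2C, which encodes the CDK4 and CDK6 inhibitor p18 (ENSG00000123080, chromosome 1 from 50960745 to 50974633), fell in the double knockdown of both lines. ACHN shNC libraries had 54.1, 56.5 and 56.7 CPM, the shKDM5C libraries 55.6 to 58.3, the shYY1 libraries 53.8 to 59.7 and the double-knockdown libraries 39.6, 34.8 and 37.5. Only the double knockdown did not overlap with shNC, with a value of −0.57 ± 0.06 (SE, adjusted p = 2.50e-07), while the singles were at 0.01 ± 0.05 (adjusted p = 0.927) and −0.01 ± 0.05 (adjusted p = 0.903). HK2 cells had 107, 106 and 105 CPM in shNC, 89.4 to 93.6 in shYY1 and 81.0 to 87.2 in the double knockdown, without overlap. The values were −0.21 ± 0.05 (adjusted p = 0.00512) and −0.36 ± 0.05 (adjusted p = 1.47e-06), and neither passed with all 12 HK2 libraries in 1 fit (adjusted p = 0.618 and 0.179). HK2 shKDM5C cells had 65.1 CPM in replicate 1 and 137 and 126 in the others, with 0.06 ± 0.23 (adjusted p = 0.904) and 0.30 (adjusted p = 0.000137) without replicate 1.

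The groups were next compared with each other, to see where the double knockdown differed from each single one. In ACHN 9 of 10 members differed between double-knockdown and shKDM5C cells (62.5% of all genes) and 8 of 10 between double-knockdown and shYY1 cells (64.6%). YY1 was depleted less in double-knockdown than in shYY1 cells, with a difference of 0.35 ± 0.06 (SE, adjusted p = 5.36e-05). CDK6 was higher in the double knockdown by 1.07 ± 0.05 (SE, adjusted p = 1.01e-11) against shKDM5C and by 0.37 ± 0.05 (adjusted p = 6.23e-06) against shYY1. CDKN2C was lower by similar amounts against both (−0.57, adjusted p = 6.97e-07, and −0.58, adjusted p = 7.89e-07). CDK4 was at −0.39 against shKDM5C (adjusted p = 1.17e-06) and at −0.14 against shYY1 (adjusted p = 0.0119), where it did not pass with total-count scaling (0.0851) or without shYY1 replicate 1 (0.0531). ShYY1 and shKDM5C cells differed from each other in 8 of 10 members (60.7% of genes), the largest being CCND2 at 2.73 ± 0.42 (adjusted p = 6.39e-06) and CDK6 at 0.69 ± 0.03 (adjusted p = 2.25e-14).

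In HK2 the double knockdown differed from shYY1 in 9 of 10 members (47.7% of genes). YY1 itself was 0.22 ± 0.06 (SE, adjusted p = 0.00645) higher in the double knockdown. CCND1 (−0.54 ± 0.06, SE, adjusted p = 2.88e-08) and CCND2 (−1.12 ± 0.11, adjusted p = 1.77e-08) were lower and CDK6 higher (0.63 ± 0.05, adjusted p = 3.94e-10) in the double knockdown. Calls of CCND3, CCNE2, CDKN1B and CDKN2C there were lost on leaving out single libraries (adjusted p up to 0.126, 0.102, 0.131 and 0.150). The CDK6 value did not pass with all 12 HK2 libraries in 1 fit (adjusted p = 0.0735). Against shKDM5C 1 member differed, CCND1 at 0.93 ± 0.12 (adjusted p = 0.00528; 11.9% of genes), and without shKDM5C replicate 1 there were 5 (43.3%). CCND3 then turned from 0.10 to −0.18 (adjusted p = 0.0226), and CDKN2C was at −0.66 (adjusted p = 2.39e-09). Between shYY1 and shKDM5C 1 member differed, CCND1 at 1.47 ± 0.13 (adjusted p = 0.00278; 4.51% of genes), and 9 without replicate 1 (35.3%).

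Whether the double knockdown departed from the sum of the single effects was tested as an interaction over the 12 libraries of a line. In ACHN 8 of 10 members departed from additivity on the log2 scale, where 55.6% of all genes did. The targets departed as well, KDM5C at −0.42 ± 0.07 (SE, adjusted p = 6.48e-06) and YY1 at 0.28 ± 0.07 (adjusted p = 0.00125). KDM5C was higher in shYY1 than in shNC cells (0.34 ± 0.04, adjusted p = 1.14e-08), and YY1 was depleted less in the double knockdown, as given above. What part this had in the departures of members was not tested. CCND2 (4.15 ± 0.66, SE, adjusted p = 7.19e-06), CCND3 (0.81 ± 0.06, adjusted p = 2.88e-11) and CDK6 (0.67 ± 0.06, adjusted p = 1.44e-09) were above the sum. CCND1 (−0.30 ± 0.07, adjusted p = 0.00045), CDK4 (−0.47 ± 0.05, adjusted p = 4.89e-08), CCNE2 (−1.01 ± 0.24, adjusted p = 0.000684), CDKN2C (−0.59 ± 0.08, adjusted p = 7.10e-07) and CCNE1 (−0.33 ± 0.13, adjusted p = 0.0336) were below it. For CCND1 the single effects, taken from the separate comparisons with shNC, summed to 1.26 against 0.99 measured, so the double knockdown was the highest group and still under the sum. For CCND3 they summed to −0.76 against 0.07. The value of CCND2 was 3.17 without shNC replicate 2, and CCNE1 did not pass in 9 of the alternatives (adjusted p up to 0.131). That of CCNE2 ran from −1.18 to −0.79 on leaving out single libraries. CDK2 (0.06, adjusted p = 0.464) and CDKN1B (0.12, adjusted p = 0.131) did not pass, the latter reaching 0.21 (adjusted p = 0.0066) with total-count scaling and 0.16 (adjusted p = 0.0327) without double-knockdown replicate 2.

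In HK2 the edgeR interaction called 0 members, where 9.61% of genes were called. At an unadjusted p under 0.05 there was 1, CCND1 at 0.44 ± 0.14 (SE, adjusted p = 0.064), fewer than the 24.7% of all genes at that cut. DESeq2 (adjusted p = 0.024, 14.2% of genes called) and total-count scaling (adjusted p = 0.0148, 9.27% of genes called) called CCND1 alone. Without shKDM5C replicate 1 there were 3 members (28.7% of genes): CCND1 at 0.54 (adjusted p = 3.92e-05), CDK6 at 0.31 (adjusted p = 0.00109), which had been at −0.17, and CDKN2C at −0.44 (adjusted p = 8.95e-05). KDM5C itself was then at −0.32 (adjusted p = 0.00244), against −0.10 (adjusted p = 0.843) with that library. As in ACHN, KDM5C was higher in shYY1 than in shNC cells of HK2 (0.35 ± 0.05, adjusted p = 1.54e-05). What part this had in the HK2 interaction was not tested.

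**Figure D4:**
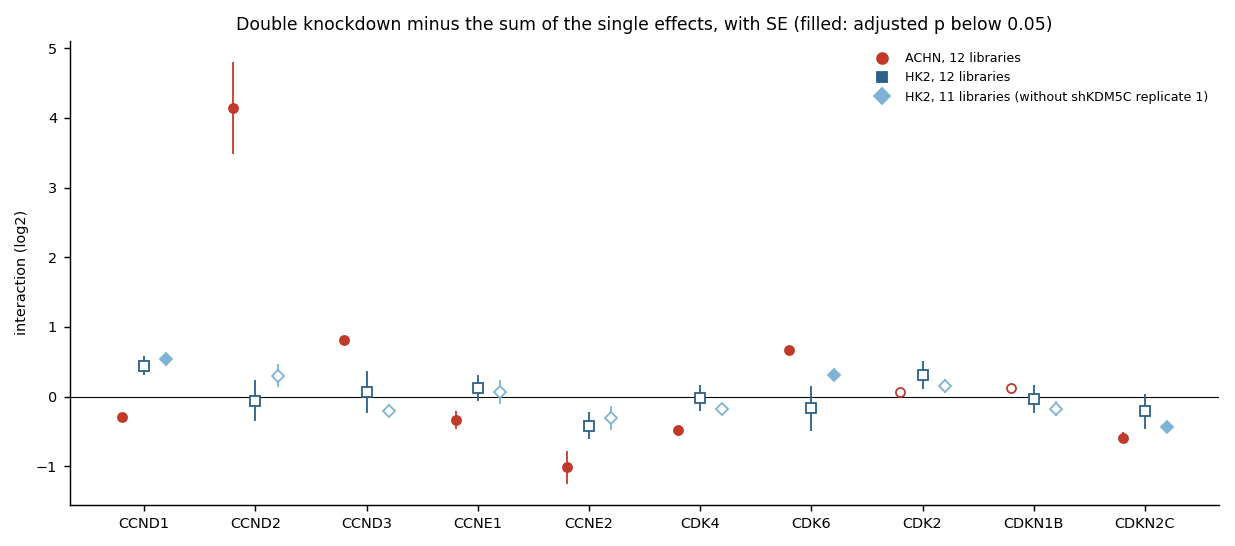
Interaction of the knockdowns (double knockdown minus the sum of the single effects, log2) with SE, for ACHN, HK2, and HK2 without the library that stood apart; filled symbols have an adjusted p under 0.05. In ACHN 8 of 10 members are filled with CCND2 at 4.15, in HK2 none of the 12-library values is, and CCND1, CDK6 and CDKN2C are filled without shKDM5C replicate 1.

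The lines were compared directly, first in their control cells. Members differed between ACHN and HK2 shNC cells in 8 of 10 cases, where 76.6% of all genes did, and line and any batch between the lines cannot be told apart. CCND1 (0.71), CCND3 (1.17), CDKN1B (1.46) and CDK2 (0.35) were higher and CCND2 (−6.70), CCNE2 (−1.62), CDKN2C (−0.94) and CCNE1 (−0.34) lower in ACHN, with CCND2 at −7.67 without ACHN shNC replicate 2. CDK4 (−0.02 ± 0.04, SE, adjusted p = 0.724) and CDK6 (0.07 ± 0.04, adjusted p = 0.104) did not pass, with intervals of −0.09 to 0.06 and −0.01 to 0.15, and CDK6 was at 0.12 (adjusted p = 0.0078) without HK2 shNC replicate 2 and at 0.09 (adjusted p = 0.0313) with no filter.

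The knockdown effects themselves differed between the lines for several members. For shKDM5C the difference between ACHN and HK2 passed the test for 2 members (11.9% of genes), CCND1 (1.74 ± 0.13, SE, adjusted p = 7.03e-06) and CCNE1 (0.86 ± 0.18, adjusted p = 0.00964), and for 8 without HK2 shKDM5C replicate 1 (33.9%). CDK6 was just outside, at −1.08 ± 0.32 (adjusted p = 0.0503), and was called by DESeq2 (−1.12, adjusted p = 0.0166) and without replicate 1 (−0.61, adjusted p = 6.90e-10). For shYY1 it passed for 6 members (33.1% of genes), with CCND2 (2.58 ± 0.39, adjusted p = 5.08e-06, and 3.56 without ACHN shNC replicate 2), CDK6 (0.64 ± 0.06, adjusted p = 2.98e-09) and CCND3 (−0.64 ± 0.06, adjusted p = 4.57e-09) the furthest apart. CCND1, which rose in shYY1 cells of both lines, differed by 0.04 ± 0.08 (adjusted p = 0.729, interval −0.11 to 0.19). For the double knockdown it passed for 7 members (46.0% of genes). CCND2 (7.44 ± 0.26, adjusted p = 1.67e-19, and 8.39 without ACHN shNC replicate 2) and CCND1 (1.06 ± 0.07, adjusted p = 1.09e-12) were further up in ACHN, and CDKN1B (−0.66 ± 0.08, adjusted p = 1.74e-07) and CDK2 (−0.54 ± 0.08, adjusted p = 2.88e-06) further down. CCNE1 and CCNE2, which were at −0.44 and −0.58 in HK2 and −0.23 and −0.83 in ACHN, did not differ past the threshold (0.23, interval −0.07 to 0.54, adjusted p = 0.238, and −0.23, interval −0.67 to 0.22, adjusted p = 0.442).

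The other genes of the pathway were taken as a list of 25 G1 to S control genes and a list of 13 S phase genes that E2F factors are known to drive. In ACHN double-knockdown cells 9 control genes were lower and 10 higher (median log2 fold change 0.07, against −0.01 over all genes tested), and 9 S phase genes were lower and 2 higher (median −0.83). HK2 double-knockdown cells had 7 control genes lower and 6 higher (median −0.02, against −0.00265 over all genes), and 13 of 13 S phase genes lower (median −0.84). Over all genes 32.0% were called lower and 30.7% higher in the ACHN double knockdown, and 24.3% and 25.5% in that of HK2. In single knockdowns 5 S phase genes were lower and 5 higher in ACHN shKDM5C (27.7% and 28.9% of all genes), 7 and 3 in ACHN shYY1 (24.5% and 24.2%), and 2 and 2 in HK2 shYY1 cells (14.7% and 14.3%), which for ACHN shKDM5C and HK2 shYY1 is near the background. In HK2 shKDM5C cells the count was 0 and 0 (0.656% and 0.668%), and 4 and 1 without replicate 1 (10.9% and 11.5%).

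Among the inhibitors that are no members, CDKN1A, which encodes p21, had the largest change in the double knockdown. It rose from 133, 141 and 131 CPM in ACHN shNC to 650, 593 and 670 in double-knockdown cells (2.25 ± 0.05, SE, adjusted p = 7.88e-17) and from 49.3, 46.9 and 52.2 to 146, 143 and 150.1 CPM in HK2 (1.56 ± 0.06, adjusted p = 1.89e-20). It was also higher in ACHN shKDM5C (0.72 ± 0.04, adjusted p = 4.79e-15) and shYY1 cells (1.03 ± 0.03, adjusted p = 3.27e-23). HK2 shYY1 cells were at 0.18 ± 0.07 (adjusted p = 0.044). HK2 shKDM5C cells had 14.7 CPM in replicate 1 and 35.1 and 34.3 in the others (−0.80 ± 0.28, adjusted p = 0.260). CDKN2D, which encodes p19, fell in ACHN (−1.31, adjusted p = 7.79e-07) and rose in HK2 (0.56, adjusted p = 0.00115). CDKN2A, which encodes the CDK4 and CDK6 inhibitor p16, had 2.003 to 2.36 CPM in ACHN shNC and 288 to 337 in HK2 shNC libraries, and it did not pass in the double knockdown of either line (adjusted p = 0.487 and 0.0527). CDKN2B, which encodes p15, had 49.8 to 52.7 CPM in ACHN shNC and 49.4 to 52.9 in the double knockdown, which overlapped, and 16.6 to 18.3 against 18.6 to 19.9 CPM in HK2. CDKN1C, which encodes p57, fell in the HK2 double knockdown (−0.41, adjusted p = 0.00518). In ACHN it was low, and it fell further in shKDM5C cells, from 49, 37 and 36 read pairs in shNC to 7, 8 and 5 (−2.56 ± 0.33, SE, adjusted p = 3.43e-07). In the double knockdown of both lines the pocket protein RBL1 fell (−0.77 in ACHN, adjusted p = 5.26e-07, and −0.43 in HK2, adjusted p = 5.54e-06). The other pocket proteins, RB1 and RBL2, were both called higher in ACHN. Of all 3 pocket proteins 1 was lower and 2 higher in ACHN (32.0% and 30.7% of all genes). In HK2 2 were lower and 1 higher (24.3% and 25.5%). FBXW7, part of the ligase that degrades cyclin E, rose in both lines (0.78 and 0.73, adjusted p = 2.38e-08 and 4.74e-09). E2F2, an activating E2F, fell in both (−1.44 and −1.82, adjusted p = 3.39e-08 and 9.42e-13), as did E2F1 (−0.96 and −0.28, adjusted p = 2.94e-08 and 0.000167), and E2F5 rose in ACHN (0.63, adjusted p = 2.34e-05). Of the S phase genes, the replication helicase subunits MCM6 (−1.63 and −0.94) and MCM4 (−1.09 and −1.02) fell in both lines. CDC6, which loads that helicase, fell in both lines as well (−1.33 and −0.90), and the replication clamp PCNA rose in ACHN (0.19, adjusted p = 0.0016) and fell in HK2 (−0.68, adjusted p = 8.54e-14). TYMS, which makes thymidylate for DNA synthesis, was at 0.16 in ACHN (adjusted p = 0.0137) and −0.95 in HK2 (adjusted p = 1.53e-13).

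**Figure D5:**
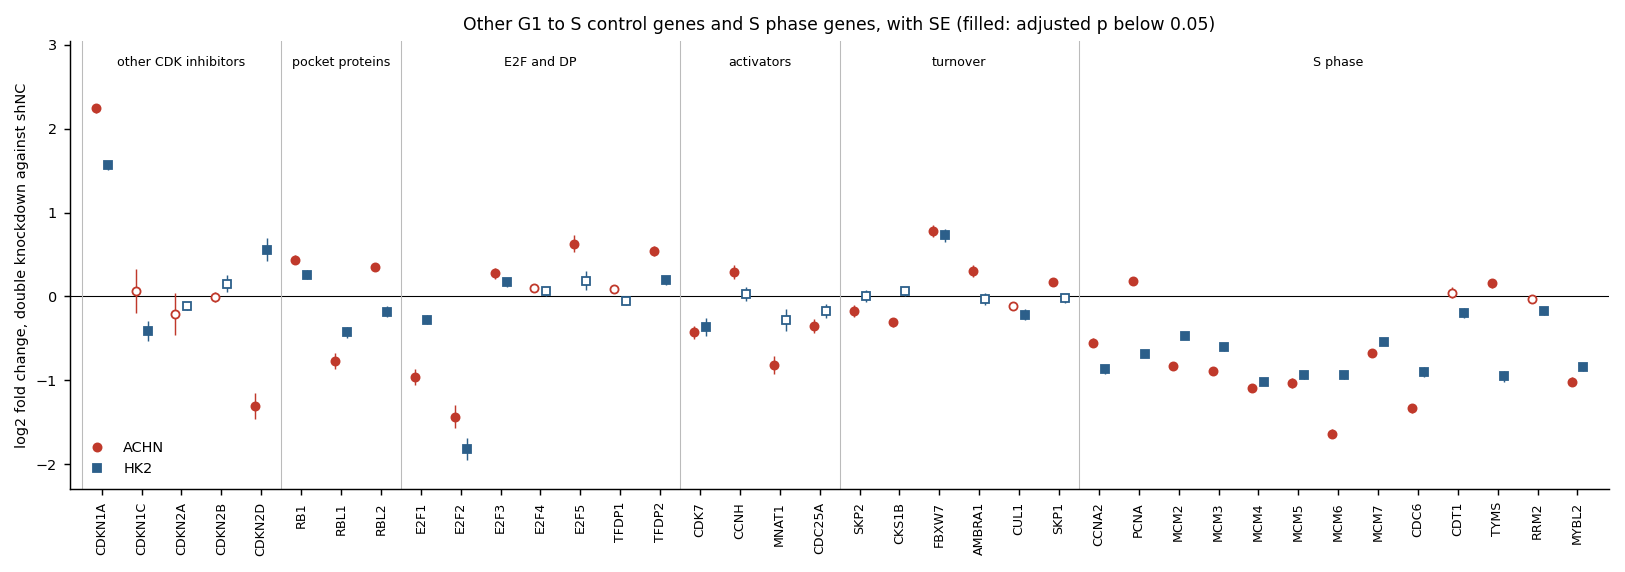
Log2 fold change with SE of 25 G1 to S control genes and 13 S phase genes in double-knockdown cells against shNC (ACHN circles, HK2 squares; filled: adjusted p under 0.05). CDKN1A stands highest in both lines (2.25 and 1.56), and 9 of 13 S phase genes are lower in ACHN and 13 of 13 in HK2.

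Lastly, the genes whose pattern was most like that of the 3 most variable members were looked up over the 24 libraries among 13251 genes, after the mean of each line had been removed. They are a description, since the libraries share lines, groups and depth. The genes nearest to CCND2 were NCBP2 (Pearson's r = 0.929), ESYT2 (0.924) and CYFIP2 (0.921), those nearest to CCND1 were AOX1 (0.950), PTPRF (0.929) and CCBE1 (0.897), and those nearest to CDK6 were VPS13C (0.968), ENSG00000280347 (0.965), which is on the same chromosome, and SOS2 (0.954). The HK2 shKDM5C library that stood apart is among the 24.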

How the data were processed

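The authors sequenced RNA libraries as read pairs, aligned them to GRCh38 with HISAT2 (2.0.5 per the labels) and counted read pairs per gene on Ensembl release 84 with featureCounts (2.0.1 per the file headers, 1.5.0-p3 per the labels), without a strand option. The deposited files hold raw counts of 60675 genes, 1 file per library, and 56558 identifiers had a symbol. The totals of 15926561 to 24272298 counted pairs limit precision for low genes such as CCND2 in ACHN.

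From these counts, edgeR 4.0.16 (R 4.3.3, limma 3.58.1) was run with TMM scaling, filterByExpr and the quasi-likelihood F test for each of 18 comparisons, with p-values adjusted by Benjamini-Hochberg over all genes tested. Each comparison used its own libraries, and interactions the 12 of a line. SEs are the fold change divided by the root of F. CPM and TPM were computed here, the latter with the exon lengths in the files. Scripts were tested on simulated data. Alternatives were DESeq2 1.42.0, RLE factors, total counts, no filter, a minimum of 10 counts, all groups in 1 fit, a replicate block and each library left out.

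Groups came from the labels. The members, lists and tests were chosen with earlier results of these data known. The named genes of each list were those past the test in the double knockdown whose higher group averaged 5 CPM or more, up to 3 with the largest change in each direction. The other inhibitors of the list were also given by their level, and the other pocket proteins by direction. Genes of like pattern were ranked by Pearson's r on log2(CPM + 0.5) among genes of at least 1 CPM. Same-numbered libraries did not deviate together, so the numbers were not used to pair them. Protein sequences and the hairpins were not used here, and 1 further marker gene is not reported here.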

Additional observations from a re-analysis of the deposited data

Results flagged for a closer look

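For 15 pairs of a member and a knockdown, the effect against shNC differed between ACHN and HK2 by edgeR's test of the difference itself, given here as ACHN minus HK2 on the log2 scale. For shKDM5C these were CCND1 (1.74 ± 0.13, SE, adjusted p = 7.03e-06) and CCNE1 (0.86 ± 0.18, adjusted p = 0.00964).

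For shYY1 they were CCND2 (2.58), CCND3 (−0.64), CDK4 (−0.22), CDK6 (0.64), CDKN1B (−0.35) and CDKN2C (0.21). The adjusted p-values ran from 2.98e-09 (CDK6) to 0.0189 (CDKN2C), and CDKN2C did not pass with no filter (0.0623), without ACHN shNC replicate 1 (0.0631) or without ACHN shYY1 replicate 3 (0.0894). With all groups in 1 fit CCND2 alone of these passed, and the adjusted p was 0.0789 for CCND3, 0.402 for CDK4, 0.0707 for CDK6, 0.163 for CDKN1B and 0.557 for CDKN2C.

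For the double knockdown they were CCND1 (1.06), CCND2 (7.44), CDK4 (−0.28), CDK6 (0.42), CDK2 (−0.54), CDKN1B (−0.66) and CDKN2C (−0.20). CDK2 fell in ACHN and rose in HK2, and CDK6 rose in both lines and more in ACHN. The value of CDKN2C, at an adjusted p of 0.0481, did not pass with total-count scaling (0.0929), a replicate block (0.0582), all groups in 1 fit (0.490) or on leaving out any of 8 single libraries (0.0506 to 0.116). CDK4 (0.138) and CDK6 (0.216) did not pass with all groups in 1 fit either.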

How the results depend on the processing

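Of 179 member values, 179 kept direction and side of the threshold with RLE factors, 178 with a minimum of 10 counts, 173 with total counts, 171 with DESeq2 and 169 with no filter. With all groups in 1 fit 125 of 159 did, and with one library left out 1292 of 1374. Without HK2 shKDM5C replicate 1 the sign of 10 member values turned, 7 of them called neither with nor without it. The other 3 were CDK4 against shNC in HK2 shKDM5C cells (0.13, with a range of −0.14 to 0.13 over left-out libraries), CCND3 in the HK2 double knockdown against shKDM5C (−0.18, range −0.18 to 0.28) and CDK6 in the HK2 interaction (0.31, range −0.36 to 0.31).

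With no filter, genes past the fold threshold numbered 936 (541 with the filter) in ACHN shKDM5C, 797 (513) in ACHN shYY1 and 2240 (1385) in ACHN double-knockdown cells. For HK2 shKDM5C against shNC, 1 member was lower, 214 genes were called and 81 passed the fold threshold. DESeq2 gave 2, 807 and 170, no filter 2, 405 and 124, and all groups in 1 fit 3, 1340 and 187. With all groups in 1 fit, HK2 shYY1 had 0 members lower, 1 higher and 927 genes called (4671 before), the HK2 double knockdown 0 higher and 3914 genes (8073 before), and the double knockdown against shYY1 3 members and 3765 genes (9 and 7609 before).

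For the HK2 double knockdown against shKDM5C (1 member, 1901 genes), DESeq2 gave 2 and 3124 and all groups in 1 fit 2 and 4647. For HK2 shYY1 against shKDM5C (1 and 717), DESeq2 gave 2 and 2088, no filter 3 and 1571, and all groups 4 and 3745. The HK2 interaction called 1 member with DESeq2 and 1 with total counts. The line difference for shKDM5C (2 members, 2140 genes) had 4 members with DESeq2, and 4 members and 3979 genes with all groups. That for shYY1 had 1 member and 2745 genes (6 and 5969 before), and that for the double knockdown 4 members (7 before). Apart from the construction of these fits, the cause was not tested.

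With a replicate block, HK2 shKDM5C against shNC had 0 members lower, 0 genes called and 0 past the fold threshold. The block gave 797 genes for the HK2 double knockdown against shKDM5C, 115 for HK2 shYY1 against shKDM5C and 957 for the line difference of shKDM5C, and 177 of 179 member values kept their side. The pairing is by number only.

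Leaving out single libraries gave 2 to 4 members lower in ACHN shYY1 cells. For HK2 shKDM5C against shNC it gave 0 to 3 members lower, 0 to 5 higher, 0 to 3718 genes called and 0 to 230 past the fold threshold. It gave 1 to 5 members and 383 to 7197 genes for the HK2 double knockdown against shKDM5C, and 1 to 9 members and 58 to 5805 genes for HK2 shYY1 against shKDM5C. It gave 0 to 3 members and 957 to 5065 genes for the HK2 interaction, and 2 to 8 members and 1267 to 6289 genes for the line difference of shKDM5C. The highest of these came without HK2 shKDM5C replicate 1. Depth limits CCND2 in ACHN shNC and shKDM5C, where 1 to 12 read pairs were counted.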
